A study of Homo sapiens with 6 samples.

Results

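The genes described here are 31 genes of the ATF4 response and of amino acid synthesis and uptake, listed by symbol: ATF4 with its partner factors, its stress targets, the enzymes of serine, glycine, proline, asparagine and sulfur amino acid synthesis, and amino acid transporters. Of the 31, 30 had a row among the 27830 genes of the count table, and 29 passed the filter on low counts, which left 14463 genes to test. NUPR1 had no row and was not analysed here, and SLC6A9, a glycine transporter, had 0, 2 and 1 counts in the controls and 0 in each of the other 3 libraries and was not tested. The samples were 6 RNA sequencing libraries of LX-2, an immortalised cell line derived from stellate cells of the human liver: 3 from untreated control cells and 3 from cells given 10 ng/ml of transforming growth factor beta 1 (TGF-β1) for 24 h. Per the labels TGF-β1 was given in medium without serum; for the controls they name no medium, so serum and TGF-β1 cannot be told apart as the source of any difference below. They do not say that samples of a group were separate cultures, and p-values then measure no more than how these samples varied, which can be technical.

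ATF4 is a transcription factor whose messenger RNA is translated more when the initiation factor eIF2α is phosphorylated, for instance when amino acids run short or unfolded proteins gather in the endoplasmic reticulum. It switches on enzymes that make serine, glycine, proline and asparagine, and the carriers that bring amino acids into the cell. Collagen is unusually rich in glycine and proline, and in cultured fibroblasts TGF-β1 is known to raise the serine-glycine route through ATF4. Because ATF4 is controlled at translation, its RNA level does not measure its activity.

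ATF4 binds, with a C/EBP partner, to a composite element with the core TGATGNAA. This core was searched on both strands (the reverse strand reads TTNCATCA) in RefSeq promoter windows of GRCh38.p14, which run from 250 bases before to 50 bases after each start site. Of the 31 members, 25 had a window, and 8 of these 25 genes (32.0%) held the core. Counted by gene in the same way, so did 289 of 10704 tested genes with a window (2.70%) and 1217 of all 27305 genes with a window (4.46%). Counted by window, 1270 of all 35116 held it (3.62%). A match is a description of letters, not of binding, and the list was drawn up from genes known as ATF4 targets. The 8 matches are shown because the core is what these 8 genes have in common, while the other members with a window lacked it. Capitals mark the 8 letters of the core, and each run is read 5′ to 3′ on the strand of its gene.
CHAC1: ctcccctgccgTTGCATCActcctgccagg
MTHFD1L: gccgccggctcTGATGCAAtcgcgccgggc
ASNS: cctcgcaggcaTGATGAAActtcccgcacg
SLC3A2: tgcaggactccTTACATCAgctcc
SLC7A1: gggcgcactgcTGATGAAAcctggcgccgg
SLC1A4: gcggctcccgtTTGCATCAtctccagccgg
SLC1A5: gaggaagtggcTGATGCAAgctgtccaggg
SLC38A1: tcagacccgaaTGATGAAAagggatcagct

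Positions count from the RefSeq start base of each window as position 0, which need not be the outermost start of the gene. The core began at -209 in CHAC1 (chr15:40953251-40953280, plus strand), -129 in MTHFD1L (chr6:150866346-150866375, plus strand), -97 in SLC1A5 (chr19:46784893-46784922, minus strand) and -68 in ASNS (chr7:97872458-97872487, minus strand). It lay at or just past the start of the window used in SLC1A4 (-7, chr2:64989381-64989410, plus strand), SLC38A1 (-4, chr12:46266502-46266531, minus strand), SLC7A1 (7, chr13:29595663-29595692, minus strand) and SLC3A2 (37, chr11:62881725-62881748, plus strand). In SLC38A1 and SLC3A2, for instance, that start is internal: the GENCODE genes begin farther upstream, at 46270017 and 62856102. The core read TGATGCAA, on either strand, in CHAC1, MTHFD1L, SLC1A4 and SLC1A5, and TGATGAAA in ASNS, SLC7A1 and SLC38A1. SLC3A2 carried TTACATCA. Of the 8 genes with the core, 5 were transporters. The window does not reach more distant elements, and no match says only that these letters are not in it.

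Library totals ran from 13866957 to 17694675 counts, so a floor of 3 counts was worth 0.175 to 0.221 CPM, that is, counts scaled to library totals after TMM normalization. The labelled cell type was compared with its markers: the summed level of 15 stellate cell markers was 4000 to 4290 CPM in controls and 4370 to 5140 CPM with TGF-β1, while DES, LRAT and RGS5 of that list stayed under 1 CPM in every library. Summed markers of other cell types in controls and with TGF-β1 were 541 to 685 and 417 to 606 CPM for 5 epithelial and biliary genes, and 439 to 467 and 420 to 451 CPM for 7 endothelial genes. They were 56.6 to 60.9 and 63.4 to 77.0 CPM for 6 hepatocyte genes, and 24.9 to 31.8 and 20.0 to 22.5 CPM for 5 leukocyte genes. Most of these sums came from a few genes, with control means of 379 CPM for KRT8, 222 for KRT18, 329 for TIE1, 117 for FLT1, 26.9 for SERPINA1 and 25.6 for CPS1. EPCAM and KRT19 of the epithelial list, CDH5 and STAB2 of the endothelial, APOA1, APOB and CYP3A4 of the hepatocyte and PTPRC, CD163 and LYZ of the leukocyte list were under 1 CPM in every library. The part of other cell types in the results was not tested. The libraries also differed in how levels followed GC content. Over the 5234 tested genes whose longest transcript has a GC content up to 45%, the median log2 deviation from the gene mean was, in replicates 1 to 3, -0.04, -0.30 and -0.01 for the controls and 0.40, 0.11 and -0.14 in the TGF-β1 replicates. The median log2 difference of those genes between groups was 0.29, so the same values are given below with this trend removed from each library.

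The first question was whether the ATF4 genes as a group differed after TGF-β1. In bulk RNA, fewer cells of a kind and less RNA per cell cannot be told apart. None of the 29 tested members passed the threshold of an adjusted p of 0.05 in edgeR's quasi-likelihood test, where 53 of 14463 genes (0.366%) did; limma voom called none of the 29, against 0.38% of all tested genes, and DESeq2 called 1 of 28 (SLC38A1, adjusted p = 0.0440), against 4.45%. At an unadjusted p under 0.05 there were 3 members (ATF5, ALDH1L2 and SLC38A1), or 10.3%, against 15.6% of all tested genes. The log2 difference, TGF-β1 minus control, was above 0 in 11 members and below 0 in 18, with a median of -0.09 against 0.01 over all tested genes. For 25 of the 29 the 95% interval of the difference lay within a 2-fold change in either direction, and the other 4 were SLC38A1, ALDH1L2, ASNS and CTH. The groups did not overlap in CPM in 1 member that was higher with TGF-β1 (SLC38A1, 3.45% of members against 7.93% of all tested genes) and 4 that were lower (ATF5, DDIT3, STC2 and SLC1A4, 13.8% against 9.12%). With the GC trend removed, SLC38A1 was called higher, 1 member against 1.79% of all tested genes, and no member was called lower, against 1.67%; the members' median was then -0.02 against -0.01 over all tested genes.

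**Figure D1:**
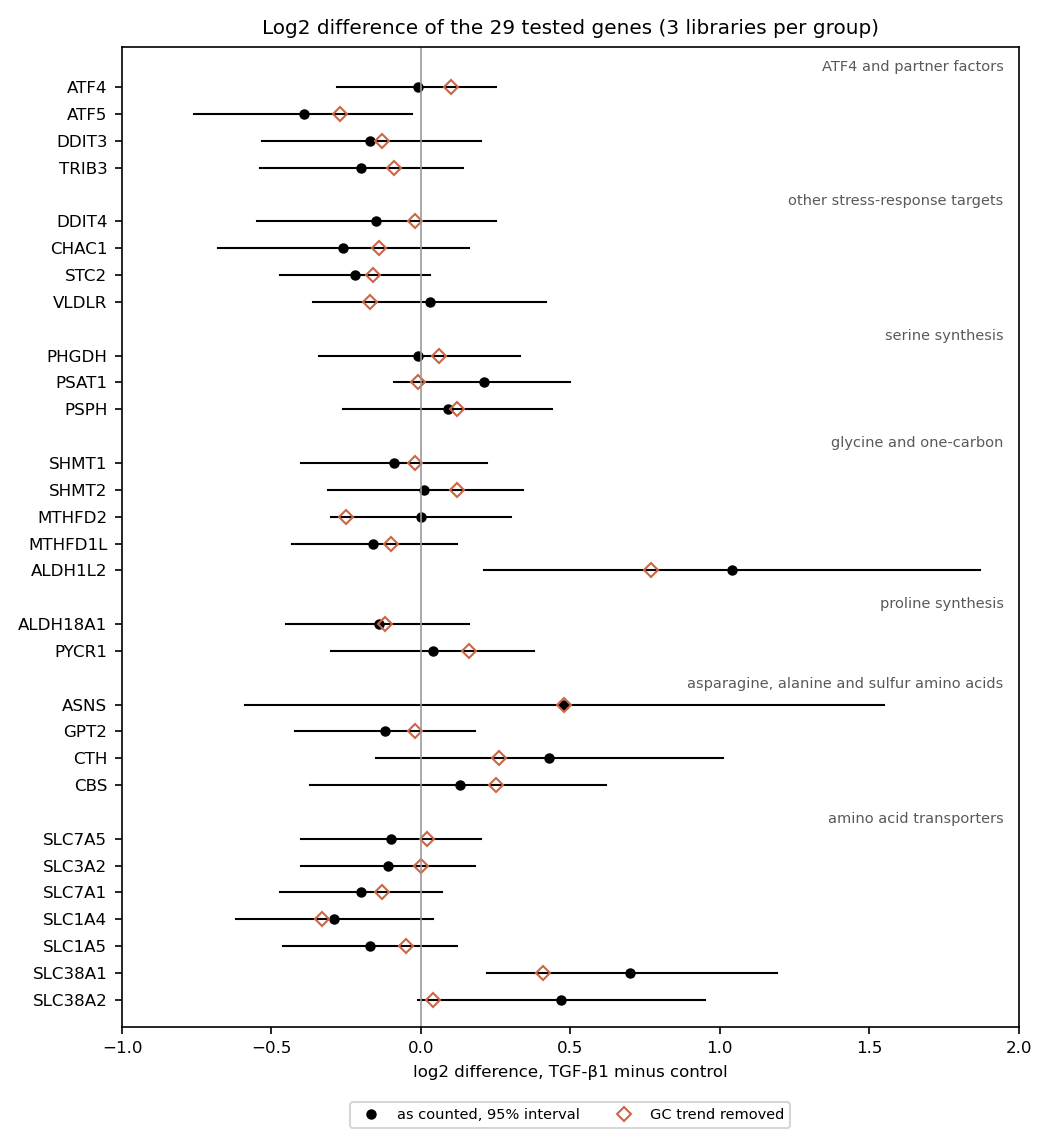
Log2 difference (TGF-β1 minus control) of the 29 tested members, grouped by role; filled points with lines are edgeR estimates with their 95% intervals, and open diamonds are the estimates with the GC trend of each library removed (3 libraries per group). Most filled points lie between -0.4 and 0.25, and ALDH1L2 (1.04) and SLC38A1 (0.70) lie farthest to the right.

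ATF4 itself was among the most abundant members and was alike in the 2 groups. Replicates 1 to 3 had 206, 230 and 209 CPM in the controls and 195, 230 and 215 CPM with TGF-β1. The groups overlapped, and the log2 difference was -0.01 ± 0.12 (SE; 95% interval -0.28 to 0.25; edgeR adjusted p = 0.978). With the GC trend removed the estimate was 0.10 (edgeR adjusted p = 0.570). ATF4 occupies positions 39519695 to 39522685 of chromosome 22 (GRCh38, plus strand), and none of its exon bases overlaps another gene of GENCODE release 29.

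ATF5, a related factor that is itself under ATF4 control, had 22.8, 24.7 and 19.9 CPM in the controls and 17.1, 15.7 and 18.6 CPM with TGF-β1. Every TGF-β1 library was below every control, a difference of -0.39 ± 0.17 on the log2 scale that did not pass (95% interval -0.76 to -0.03; edgeR adjusted p = 0.278; with the GC trend removed -0.27, adjusted p = 0.223). Other genes, IL4I1 and NUP62 on the opposite strand among them, cover 23.7% of its exons, and the library kit does not mark strand, so its counts are uncertain.

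DDIT3, which encodes the stress factor CHOP, had 13.6, 14.0 and 14.0 CPM in the controls and 11.5, 13.6 and 12.0 CPM with TGF-β1 (log2 difference -0.17 ± 0.17, edgeR adjusted p = 0.663). The closest libraries of the 2 groups were equal after rounding, and other genes, MARS on the opposite strand among them, cover 39.6% of its exons. TRIB3, a pseudokinase that feeds back on ATF4 and CHOP, had 75.9, 79.7 and 67.5 CPM in the controls and 52.1, 67.2 and 75.3 CPM with TGF-β1 (edgeR adjusted p = 0.575). Its TGF-β1 libraries spread over a wider range than the controls and overlapped them. The 4 factors of this group were below 0 on the log2 scale, from -0.39 to -0.01, but ATF4 was above 0 with total counts only (0.0112) or with the GC trend removed.

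Among the other stress targets, STC2, a secreted glycoprotein induced by endoplasmic reticulum stress, was the most abundant. It had 377, 411 and 406 CPM in the controls and 362, 328 and 337 CPM with TGF-β1, with no overlap and a log2 difference of -0.22 ± 0.12 that did not pass (edgeR adjusted p = 0.384). CHAC1, the glutathione-degrading enzyme with the core at -209, had 17.7 ± 2.83 and 14.7 ± 2.55 CPM (mean ± SD of 3 libraries; edgeR adjusted p = 0.551). DDIT4, an inhibitor of the growth kinase mTORC1, had 44.6 ± 9.93 and 40.2 ± 5.37 CPM (edgeR adjusted p = 0.731), and the antisense gene DDIT4-AS1 covers 41.2% of its exons. VLDLR, a lipoprotein receptor, had 21.0 ± 1.83 and 21.5 ± 3.93 CPM (edgeR adjusted p = 0.947). Its log2 difference was 0.03 as counted and -0.17 with the GC trend removed, so no direction is given for it.

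**Figure D2:**
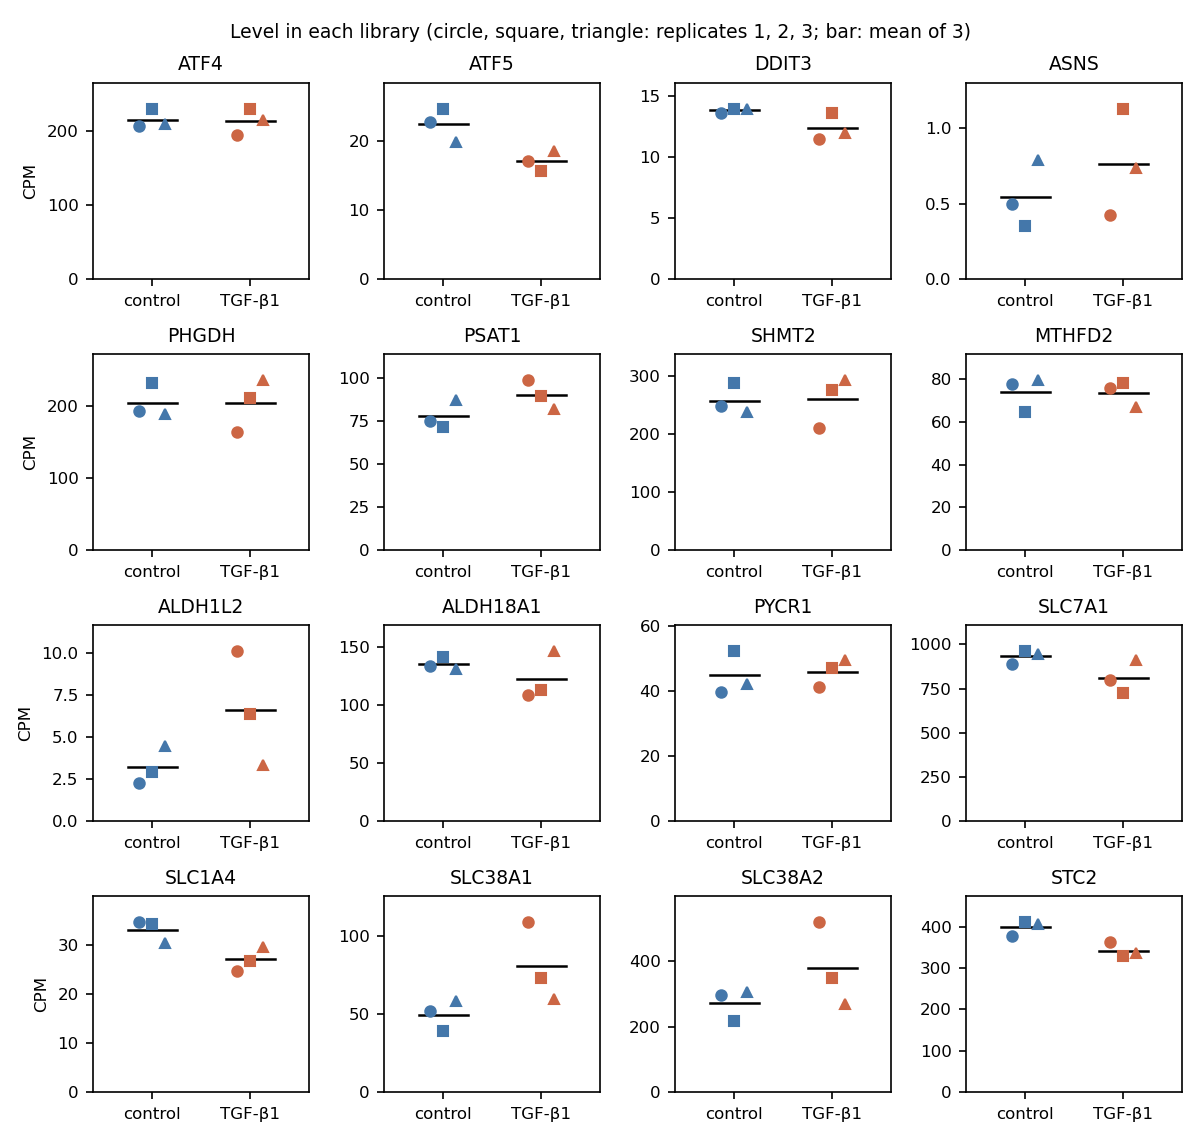
Level in CPM of 16 members in each of the 6 libraries; each panel has its own axis from 0, symbols are replicates 1 to 3 and bars are group means. SLC38A1 is higher in each TGF-β1 library than in each control, while ATF4, PHGDH, SHMT2 and PYCR1 overlap between the groups.

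The next question was whether the routes that make serine, glycine and proline, which feed collagen, moved with it. Serine is made from a glycolytic intermediate in 3 steps by PHGDH, PSAT1 and PSPH. PHGDH, the first enzyme, had 192, 232 and 189 CPM in the controls and 164, 211 and 236 CPM with TGF-β1. Its means were both 204 CPM, with a log2 difference of -0.01 ± 0.15 (95% interval -0.34 to 0.33; edgeR adjusted p = 0.991) and 0.06 with the GC trend removed. PSAT1, the aminotransferase, had 75.2, 71.8 and 87.3 CPM in the controls and 99.0, 89.5 and 81.8 CPM with TGF-β1. The groups overlapped through control replicate 3 and TGF-β1 replicate 3, and the log2 difference of 0.21 ± 0.14 (edgeR adjusted p = 0.492) was -0.01 with the GC trend removed. PSPH, the phosphatase that ends the route, had 18.6 ± 0.604 and 19.8 ± 1.82 CPM (SD, n = 3; edgeR adjusted p = 0.823).

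SHMT1 and SHMT2 turn serine into glycine in the cytosol and in mitochondria, and MTHFD2, MTHFD1L and ALDH1L2 carry the freed carbon unit through the mitochondrial folate pathway. SHMT2 had 247, 288 and 237 CPM in the controls and 210, 276 and 293 CPM with TGF-β1, and the groups overlapped fully (log2 difference 0.01 ± 0.15, 95% interval -0.31 to 0.34, edgeR adjusted p = 0.976). SHMT1 had 97.5 ± 13 and 91.8 ± 10.2 CPM (edgeR adjusted p = 0.802) and MTHFD1L 89.0 ± 4.30 and 79.8 ± 6.45 CPM (edgeR adjusted p = 0.578). MTHFD2 had 73.9 ± 8.27 and 73.7 ± 5.93 CPM (edgeR adjusted p = 0.992), with a log2 estimate of -0.00 as counted and, once the GC trend was removed, of -0.25 (adjusted p = 0.191), and other genes cover 33.2% of its exons.

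ALDH1L2, which oxidises mitochondrial formyl-folate and yields NADPH, had the largest estimated difference of all members, at a low level. It had 2.26, 2.91 and 4.45 CPM in the controls (32, 50 and 73 counts) and 10.1, 6.35 and 3.31 CPM with TGF-β1 (167, 107 and 45 counts). TGF-β1 replicates 1 and 2 were above all controls, and replicate 3 lay within the control range. The log2 difference was 1.04 ± 0.38 (95% interval 0.21 to 1.87; edgeR adjusted p = 0.223), and with the GC trend removed it was 0.77 (adjusted p = 0.136). It was called, as were 1671 of 14874 tested genes, when TGF-β1 replicate 3 was left out (log2 difference 1.35, edgeR adjusted p = 0.0150). The log2 difference was 0.59 without TGF-β1 replicate 1 (edgeR adjusted p = 0.380).

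Proline is made from glutamate by ALDH18A1, which forms the intermediate pyrroline-5-carboxylate, and PYCR1, the mitochondrial reductase that completes it. ALDH18A1 had 134, 142 and 131 CPM in the controls and 109, 113 and 147 CPM with TGF-β1. The lowest and the highest library were both from the TGF-β1 group, and the log2 difference was -0.14 ± 0.14 (95% interval -0.45 to 0.16; edgeR adjusted p = 0.657). PYCR1 had 39.9, 52.5 and 42.4 CPM in the controls and 41.4, 47.3 and 49.7 CPM with TGF-β1. The TGF-β1 values lay inside the control range, with a log2 difference of 0.04 ± 0.16 (95% interval -0.30 to 0.38; edgeR adjusted p = 0.930), and other genes cover 29.7% of its exons.

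The routes were then set beside collagen on the deposited FPKM scale, which divides by gene length. Summed FPKM of the 3 serine synthesis genes was 61.6, 62.8 and 67.1 in the controls and 69.9, 73.0 and 68.8 in the TGF-β1 libraries, a ratio of means of 1.10. The 5 glycine and one-carbon genes summed to 91.8, 99.5 and 89.4 and to 81.3, 98.0 and 99.9 FPKM (ratio 0.994). The 2 proline synthesis genes summed to 49.5, 54.2 and 49.8 and to 43.8, 47.5 and 55.2 FPKM (ratio 0.954). The serine sums did not overlap between groups while the glycine and proline sums did. Summed FPKM of 19 collagen chains was 789, 910 and 789 in the controls and 919, 1050 and 935 in the TGF-β1 libraries, a ratio of 1.17 with no overlap. These sums carry no test, and most of the serine difference came from PSAT1, whose difference as counted was not seen with the GC trend removed. Of 18 tested collagen chains, 3 rose (COL4A1, COL3A1 and COL5A1, with log2 differences of 0.87, 0.71 and 0.72) and 1 fell (COL4A6, -0.98). With the GC trend removed 6 rose and 3 fell. Over all tested genes 0.366% were called as counted, and with the GC trend removed 1.79% were called higher and 1.67% lower. The collagen genes were chosen with these results known, so their counts are no test of a collagen response.

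**Figure D3:**
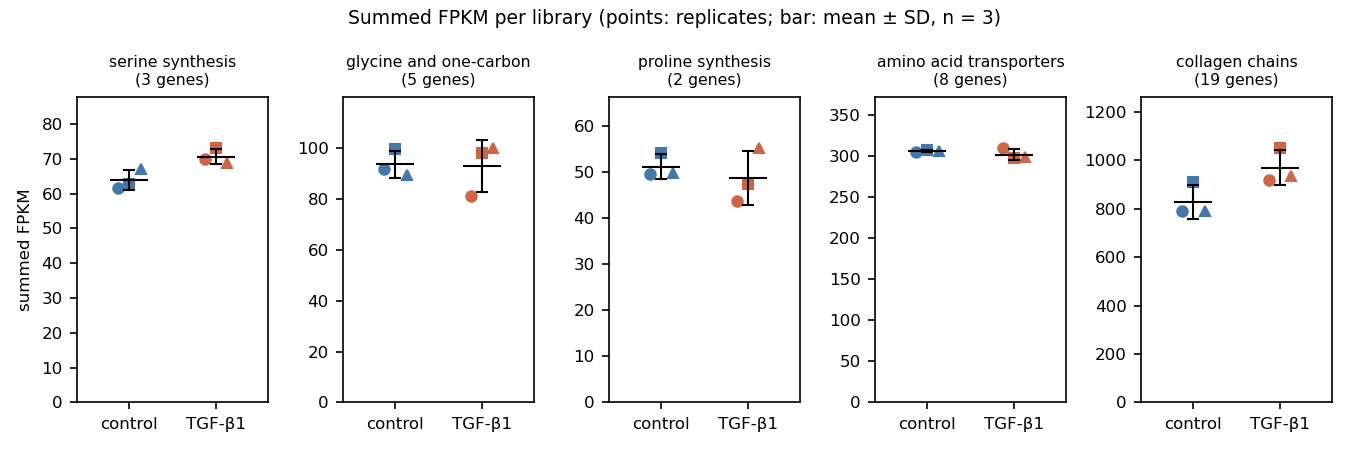
Summed FPKM per library for serine synthesis (3 genes), glycine and one-carbon (5), proline synthesis (2), amino acid transporters (8) and collagen chains (19); symbols are replicates 1 to 3, bars are means ± SD (n = 3), and each axis starts at 0. The collagen sums are higher with TGF-β1 (919 to 1050 against 789 to 910), and so are the serine sums (68.8 to 73.0 against 61.6 to 67.1). The glycine, proline and transporter sums overlap between the groups.

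FPKM compares genes only as far as the length used for each is right. The length that turns counts into FPKM was 9187 bases for PHGDH, 11443 for MTHFD2 and 16508 for VLDLR, against 2206 for PSAT1 and 2886 for PYCR1. Mean FPKM over the 6 libraries was highest for SLC7A1 (113), ATF4 (81.8), STC2 (73.0) and SHMT2 (56.2), and 7 of 30 members were above 50. It was lowest for SLC6A9 (0.00553), ASNS (0.134), ALDH1L2 (0.519) and CTH (1.0). Neighbours in this order were often closer to each other than their spread: within the controls SLC3A2 (54.8 ± 3.17 FPKM, SD, n = 3) lay beside SLC1A5 (55.6 ± 4.66), and SLC7A5 (24.1 ± 1.77) beside TRIB3 (22.4 ± 1.57). With TGF-β1 the same genes were at 51.4 ± 6.53, 50 ± 4.91, 22.8 ± 3.02 and 19.8 ± 3.35 FPKM.

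ASNS, asparagine synthetase and a defining ATF4 target, was close to the floor in every library. It had 7, 6 and 13 counts in the controls and 7, 19 and 10 counts with TGF-β1, or 0.495, 0.35 and 0.792 against 0.425, 1.13 and 0.736 CPM. The groups overlapped (log2 difference 0.48 ± 0.49, 95% interval -0.59 to 1.55, edgeR adjusted p = 0.669). At these counts a 2-fold rise lay within the interval. Of the exon bases of ASNS, 44.6% overlap AC079781.5, a long transcript on the same strand that itself had 1 to 4 counts per library; whether reads shared by overlapping genes were counted is not stated in the sources used here, and the part of this overlap in the low counts was not tested.

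The remaining enzymes were GPT2, which makes alanine in mitochondria, and CBS and CTH, which pass sulfur from homocysteine to cysteine. GPT2 had 82.5 ± 6.95 and 76.0 ± 9.31 CPM (SD, n = 3; edgeR adjusted p = 0.714). CTH had 2.12, 1.92 and 2.13 CPM in the controls and 3.04, 2.08 and 3.24 CPM with TGF-β1, so that TGF-β1 replicate 2 lay among the controls (log2 difference 0.43 ± 0.27, edgeR adjusted p = 0.469). CBS had 12.0 ± 2.15 and 13.1 ± 3.64 CPM (edgeR adjusted p = 0.821). Its near-identical copy CBSL had a row of its own, so reads of the pair may be split and the CBS level is uncertain.

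Among the transporters SLC38A1 had the largest estimated difference. It encodes SNAT1, a sodium-coupled carrier of glutamine and other small neutral amino acids, and occupies positions 46183063 to 46270017 of chromosome 12 (GRCh38, minus strand), with no exon overlap. SLC38A1 had 51.9, 39.0 and 58.4 CPM in the controls and 109, 73.4 and 60.0 CPM with TGF-β1. Every TGF-β1 library was above every control, by a wide margin in replicate 1 and barely in replicate 3. The log2 difference was 0.70 ± 0.22 (1.62-fold, 95% interval 0.22 to 1.19) and did not pass (edgeR adjusted p = 0.182). It was 0.42 without TGF-β1 replicate 1 (edgeR adjusted p = 0.182). Without TGF-β1 replicate 3 it was 0.87 and passed (edgeR adjusted p = 0.0164), as did 1671 of 14874 tested genes. With the GC trend removed it was 0.41 ± 0.10 and passed narrowly (edgeR adjusted p = 0.0475), but with 1 library left out as well it passed only without TGF-β1 replicate 3 (adjusted p = 0.0255) and not without any of the other 5 (0.0511 to 0.200).

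SLC38A2, the gene of the sister carrier SNAT2, which is induced when amino acids are scarce, is also on chromosome 12, from 46358189 to 46372867. It had 296, 218 and 305 CPM in the controls and 519, 349 and 270 CPM with TGF-β1. TGF-β1 replicates 1 and 2 were above the controls and replicate 3 was within their range, with a log2 difference of 0.47 ± 0.22 (edgeR adjusted p = 0.323). With the GC trend removed the difference was 0.04 (adjusted p = 0.849). Its transcript has a GC content of 38.1%, the lowest of the members, against 41.3% for SLC38A1. Without TGF-β1 replicate 3 the difference as counted was 0.67 (edgeR adjusted p = 0.0335), and without TGF-β1 replicate 1 it was 0.18 (adjusted p = 0.781).

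The other tested transporters were all below 0 on the log2 scale as counted, and none was called. SLC7A1, the arginine and lysine carrier CAT1 and the most abundant member, had 887, 963 and 944 CPM in the controls and 800, 723 and 912 CPM with TGF-β1 (log2 difference -0.20 ± 0.12, edgeR adjusted p = 0.473). SLC1A4, a carrier of alanine, serine and cysteine, had 34.7, 34.2 and 30.5 CPM in the controls and 24.8, 26.7 and 29.6 CPM with TGF-β1. Its groups did not overlap, and the log2 difference of -0.29 ± 0.15 (edgeR adjusted p = 0.380) was -0.33 with the GC trend removed (adjusted p = 0.172). SLC7A5 and SLC3A2, the light and heavy chains of the leucine carrier LAT1, had 116 ± 10.8 and 108 ± 13.9 CPM, and 353 ± 27.3 and 327 ± 42.2 CPM (edgeR adjusted p = 0.756 and 0.719). SLC7A5 was at 0.02 with the GC trend removed. SLC1A5, the glutamine carrier ASCT2, had 187 ± 19.2 and 166 ± 18.1 CPM (edgeR adjusted p = 0.569). The 8 transporters together summed to 305, 307 and 306 FPKM in the controls and 309, 297 and 298 in the TGF-β1 libraries.

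Among the tested transporters the ATF4 core was in SLC38A1, with the highest estimate, and in SLC1A4, with the lowest. Only SLC7A5 (-0.10) and SLC38A2 (0.47) had a window without it, too few to compare transporters with and without the core. The log2 differences of the 8 members with the core ran from -0.29 to 0.70 with a median of -0.16. Those of the 16 tested members whose window lacked it ran from -0.39 to 0.47 with a median of -0.05.

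The members' log2 differences were also set against GC content, as for all tested genes; no test compared the 2 sets. Of 7 members with a GC content up to 45%, 6 were above 0 on the log2 scale, with a median of 0.43, against 0.29 for all 5234 tested genes in this range. Of 12 members above 55%, 3 were above 0, with a median of -0.12, against -0.11 for 4246 tested genes. Across the 29 members, which share the same 6 libraries, the log2 difference and the GC content had a Pearson r of -0.63 (Spearman's rho -0.53), and across 14375 tested genes r was -0.48. With the trend removed r was -0.24 over the members. TGF-β1 replicate 1 was the highest of the 6 libraries in 5 of the 7 members up to 45% GC (70.9% of all tested genes in that range) and the lowest in 16 of the 22 above it (40.1%). Control replicate 2 was the lowest in 6 of the 7 (57.9%) and the highest in 14 of the 22 (40.2%).

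**Figure D4:**
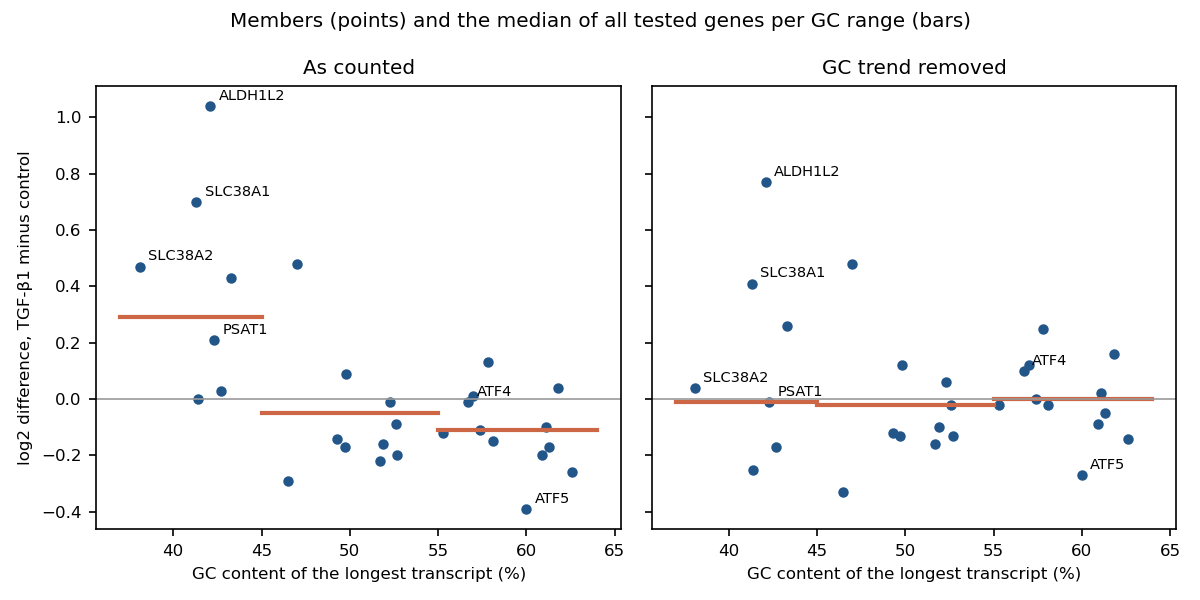
Log2 difference (TGF-β1 minus control) of the 29 tested members against the GC content of their longest transcript in percent, as counted on the left and with the GC trend removed on the right; points are members and bars the median of all tested genes in 3 GC ranges (up to 45, 45 to 55, above 55%). As counted, the bars go from 0.29 to -0.11 and the members follow them; with the trend removed the bars are at -0.02 to 0.00, and ALDH1L2 (0.77), ASNS (0.48) and SLC38A1 (0.41) are the highest members.

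Genes upstream of ATF4 and on neighbouring branches were read from lists of their own. Of 16 tested genes of eIF2α phosphorylation and its control, none passed, and the median log2 difference was 0.01. EIF2AK3, the endoplasmic reticulum kinase PERK, had 13.2 ± 0.902 and 17.4 ± 4.53 CPM (edgeR adjusted p = 0.370). EIF2AK2 (0.50, adjusted p = 0.274) and IMPACT (0.49, adjusted p = 0.301) were close to 0 with the GC trend removed (0.08 and 0.06). Of 16 genes of the other unfolded protein branches and chaperones, none passed (median 0.12), with DNAJC3, a chaperone cofactor, at 0.63 (edgeR adjusted p = 0.210).

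Of 17 tested further genes linked to ATF4, 1 fell and none rose, with a median of -0.01. Over all tested genes 0.366% were called in either direction. GDF15, a stress cytokine, was 8.91, 13.4 and 9.75 CPM in the controls and 3.16, 3.80 and 5.0 CPM with TGF-β1, a log2 difference of -1.43 ± 0.24 (edgeR adjusted p = 0.0314; -1.31 with the GC trend removed). GDF15 is also a target of p53. TXNIP, a thioredoxin inhibitor, had 245, 237 and 244 CPM in the controls and 174, 167 and 185 CPM with TGF-β1. Its difference of -0.46 ± 0.11 passed with the GC trend removed (-0.59, edgeR adjusted p = 0.0117) and not as counted (adjusted p = 0.118). CCPG1, a receptor for degradation of the endoplasmic reticulum, had 2.90 ± 0.456 and 6.54 ± 2.17 CPM (edgeR adjusted p = 0.105).

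None of the 20 aminoacyl-tRNA synthetase genes, which load amino acids onto transfer RNA and many of which ATF4 induces, passed the test. Their median was -0.01, and EPRS1, which loads glutamate and proline, had the smallest p (0.70 ± 0.24, edgeR adjusted p = 0.211; 0.51 and 0.0665 with the GC trend removed). TARS1 (0.54, adjusted p = 0.256) and NARS1 (0.43, adjusted p = 0.314) followed.

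Of the further serine, glycine and folate genes none of 17 tested passed as counted (median -0.08), and of 17 tested further proline, glutamate and arginine genes none passed as counted (median -0.14). TGF-β1 replicate 1 was the highest and replicate 3 the lowest of its group in SLC38A1, SLC38A2, ALDH1L2 and PSAT1. These members have a GC content up to 45%. The median deviations of all 5234 tested genes in that range had the same order (0.40, 0.11 and -0.14). The other members in that range had another order with TGF-β1: VLDLR (26.0, 19.0 and 19.3 CPM), MTHFD2 (76.0, 78.1 and 67.0 CPM) and CTH (3.04, 2.08 and 3.24 CPM). The part of the GC trend in these differences was not tested. ASS1, which makes argininosuccinate on the way to arginine, had 12.6 ± 1.53 and 8.03 ± 1.65 CPM (edgeR adjusted p = 0.170). None of 21 further amino acid transporters (median 0.16) and none of 12 further methionine, cysteine and glutathione genes (median 0.08) passed; SLC38A5 was at 0.29 (edgeR adjusted p = 0.484) and GSR, glutathione reductase, at -0.37 (adjusted p = 0.204).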

How the data were processed

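The 31 members and all gene lists were chosen with earlier results of these data known. Read counts per gene were deposited without normalization, per the file headers, and the deposited FPKM values followed from them with 1 length per gene (largest relative spread of that length 9.25e-15 over 13417 genes). The submitters' processing notes name HISAT2, HTSeq 0.13.5 and GRCh38, with no role, and no annotation release is stated there. RNA was extracted with Trizol and libraries made with the NEBNext Ultra kit, which does not mark strand, per the labels' protocols. Counts of all 27830 genes were fitted with edgeR 4.0.16 in R 4.3.3 (filterByExpr, TMM, robust quasi-likelihood F test, two-sided), with Benjamini-Hochberg adjustment over 14463 genes. CPM use TMM-scaled totals, and log2 differences carry their SE. The GC trend was a loess fit (span 0.5) of each library on the GC content of the longest GENCODE 29 transcript, known for 99.4% of tested genes, entered as offsets. The code was checked on simulated data. Per-library values are given for ATF4, for called members and for the member with the smallest p of each role, and some others were added after their values were seen; from pathway lists, called genes and at most 3 with the smallest p are named, and some results of these lists are not reported here. The floor covers counting error only. Within groups, libraries differed by more than counting noise (chi-square 4.86 to 41.1 per degree of freedom), and none was treated as a duplicate. Alternatives were other scalings, other filters, DESeq2 1.42.0, limma 3.58.1 voom, the replicate number as a block, and each library left out. The GC trend removed with 1 library left out was chosen after seeing the data. Encoded glycine, proline and serine shares were not analysed here, since no protein table was used.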

Additional observations from a re-analysis of the deposited data

How the results depend on the processing

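No member was called as counted (0 higher, 0 lower), nor with DESeq2-type, upper quartile or total-count scaling, the filter of 1 CPM in 3 libraries, limma voom, or the GC trend removed with the replicate block. There were 3 without a filter (SLC38A1, SLC38A2, ALDH1L2), 1 with DESeq2, 1 with the replicate block and 1 with the GC trend removed (SLC38A1 each time, higher), and 0 to 3 with 1 library left out, the 3 being the same genes, called without TGF-β1 replicate 3. No member was called lower in any of these settings. Calls among all tested genes numbered 53 of 14463, against 111 of 14463 with upper quartile factors and 1240 of 27830 without a filter. DESeq2 called 590 of 13262 and the replicate block 527 of 14463. The GC trend removed gave 500 of 14463, and 441 of 14463 with the block. With 1 library left out the calls numbered 13 of 14858, 37 of 14801 and 15 of 14831 without control replicates 1 to 3. They numbered 324 of 14718, 4 of 14772 and 1671 of 14874 without TGF-β1 replicates 1 to 3. With the GC trend removed, leaving out 1 library gave 0 to 2 called members. The 2 were ALDH1L2 and SLC38A1 without TGF-β1 replicate 3, where 1475 of all tested genes were called. SLC38A1 had log2 differences of 0.32 to 0.48 over the libraries left out in this way.

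Opposite directions occurred only in members that were not called. With the GC trend removed, and with the block as well, ATF4 was at 0.0985 and 0.0953, VLDLR at -0.170 and -0.172, PHGDH at 0.0606 and 0.0537, PSAT1 at -0.00524 and -0.00400, and SLC7A5 at 0.0164 and 0.0136. Total counts gave 0.0112 for ATF4, 0.0144 for PHGDH and 0.0154 for MTHFD2, upper quartile factors -0.00290 for VLDLR and -0.0145 for SHMT2, and voom 0.00237 for MTHFD2. With 1 library left out the ranges were -0.0667 to 0.0467 for ATF4, -0.276 to 0.0231 for DDIT4, -0.131 to 0.113 for VLDLR, -0.126 to 0.125 for PHGDH, -0.176 to 0.00293 for SHMT1, -0.0843 to 0.142 for SHMT2, -0.121 to 0.0579 for MTHFD2, -0.0421 to 0.141 for PYCR1 and -0.121 to 0.280 for CBS. The causes were not tested.

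Deviations of same-numbered samples from their group means correlated at 0.264, 0.158 and -0.473, so the replicate numbers were not taken to pair the samples, and some samples correlated best with another number. Low counts left SLC6A9 untested (0 to 2 counts per library), and ASNS had 6 to 19 counts per library. The encoded amino acid shares and their alternatives were not run.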
